A study of Mus musculus with 99 samples.

Results

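Ventral hippocampus of mice that had been through chronic social defeat was compared with that of control mice, whatever the behavioural outcome of the defeat. The 11 libraries used, of 99 in the series, were all those of ventral hippocampus from mice given saline: 4 of control mice, 3 of defeated mice classed as susceptible and 4 of defeated mice classed as resilient. They were chosen by the region and group in their labels, with no use of the measured values, and the 7 defeated libraries were set against the 4 control libraries with equal weight for each. Each library held tissue of 2 mice. Strain, sex, age, dose and the time between the last defeat and tissue collection are not given in the sources used here. Nothing in the labels names a transgene or a deleted gene. The 13 drug-treated libraries of ventral hippocampus entered the model but no contrast. They helped to estimate the spread between libraries, to filter genes of low count and to set the scaling of the libraries.

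Chronic social defeat is a stress procedure in which a mouse is exposed again and again to a larger aggressor and then housed within sight and smell of it. Mice that afterwards avoid social contact are called susceptible, and those that do not are called resilient. The ventral hippocampus, which projects to the amygdala, nucleus accumbens and prefrontal cortex, is known for its part in anxiety-related behaviour and in the feedback of glucocorticoids on the stress axis. Neurons there carry both receptors for corticosteroids, Nr3c1 and Nr3c2, and switch on immediate early genes such as Fos and Arc after activity.

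Total counts ran from 20132572 (resilient replicate 3) to 58098396 (resilient replicate 4). The label of the tissue was checked on marker genes in control libraries, 4 from ventral hippocampus and 5 from each other region. Markers of dentate granule cells averaged 5.93 ± 0.0814 log2 CPM (SD, n = 4; CPM, reads of a gene relative to the scaled size of its library) in ventral hippocampus and 1.70 to 2.55 in the other regions, and all 8 were highest in hippocampus. Markers of CA3 and CA2 pyramidal cells averaged 5.62 ± 0.125 (SD, n = 4) against 3.78 to 4.12, with 8 of 9 highest in hippocampus. CA1 markers averaged 6.21 ± 0.167 (SD, n = 4) against 4.70 to 5.34, but only 2 of 6 were highest there. The 5 genes listed as markers of the ventral pole (Trhr, Coch, Dcn, Nr2f2, Gpc3) averaged 1.75 ± 0.191 (SD, n = 4), against 2.87 to 4.65 in the other regions, and 0 of them were highest there. They are therefore no check of the ventral part of the label, and the series has no dorsal hippocampus to set beside it.

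A small number of libraries stood apart from the rest, and the results that rest on them most are given with and without them. Among the 13266 genes that averaged 1 log2 CPM or more, 162 were highest in a single library by at least 1.5-fold over the next, and 48 were lowest by that margin. Resilient replicate 3, the shallowest library, was that library for 100 of the highest and 38 of the lowest genes. Control replicate 1 was it for 30 of the highest genes, resilient replicate 1 for 18, resilient replicate 4 for 7 and susceptible replicate 1 for 5. The sample numbers in the titles also fall into 5 runs of consecutive numbers, numbered here in rising order, whose meaning the labels do not give. Of these runs, 4 hold both defeated and control libraries, so defeated minus control was also read within each of them. Runs 1, 3 and 4 each hold 1 defeated and 1 control library, and run 5 holds 3 defeated and 1 control. The sign within a run therefore rests on very few libraries.

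**Figure D1:**
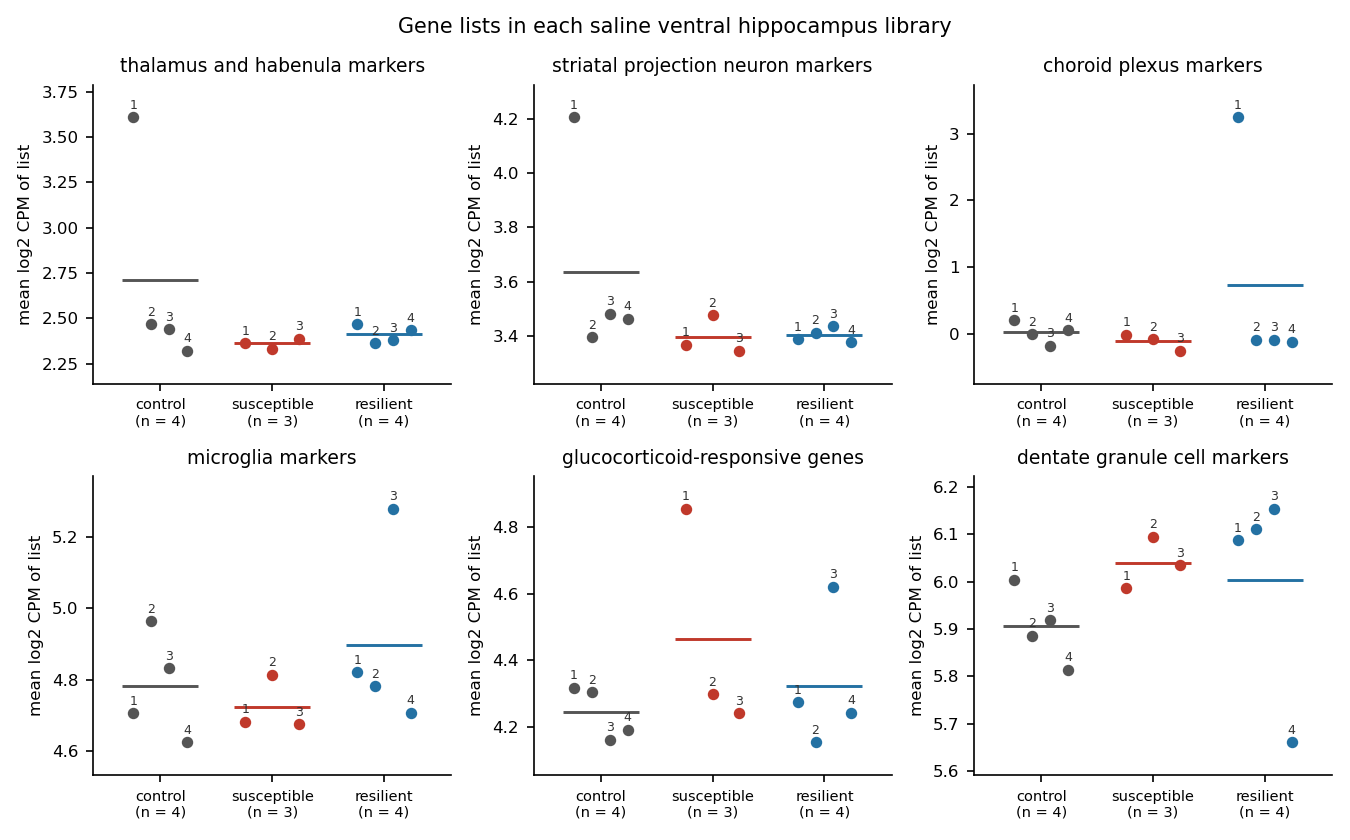
Mean log2 CPM of 6 gene lists in each of the 11 libraries, with control, susceptible and resilient mice on the horizontal axis; each point is 1 library, labelled with its replicate number, and each line is the mean of its group. Control replicate 1 is at 3.61 for thalamus and habenula markers and 4.21 for striatal markers, resilient replicate 1 at 3.24 for choroid plexus markers, resilient replicate 3 at 5.28 for microglia markers and susceptible replicate 1 at 4.86 for glucocorticoid-responsive genes.

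No gene was called different between defeated and control mice in the ventral hippocampus by the test used. Of 17758 genes tested with edgeR's quasi-likelihood test, 0 (0%) passed an adjusted p of 0.05, and the smallest adjusted p was 0.999994. At an unadjusted p below 0.05 there were 200 genes (1.13%), of which 86 (0.484%) had higher and 114 (0.642%) lower values in defeated mice; a uniform distribution of p would put 887.9 genes there. That count was 434 with no filter on low counts and 772 with the run of sample numbers as a covariate, each with 0 called. The number of small p values thus depended on the model, and 0 calls do not show that no gene changed. DESeq2 also called 0 genes, with 190 at an unadjusted p below 0.05. Of the 200 genes, 113 differed by at least 1.3-fold. The median log2 fold change over all genes tested was 0.0059, and 9509 genes (53.5%) lay above 0.

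The absence of calls came with narrow intervals for most expressed genes. The standard error (SE) of the log2 fold change had a median of 0.0958 over all genes tested and 0.0780 over the 13266 genes that averaged 1 log2 CPM or more. For 12875 of those genes (97.1%) the 95% interval of the difference lay within 1.5-fold in either direction, and for 13202 (99.5%) it lay within 2-fold. Differences smaller than these intervals were not detectable with 7 libraries against 4, and larger ones could also go uncalled. A call needed an adjusted p below 0.05 over all genes tested, which is stricter than an interval that leaves out 0. Since each library pooled 2 mice, the spread is that between pools, not between single animals.

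**Figure D2:**
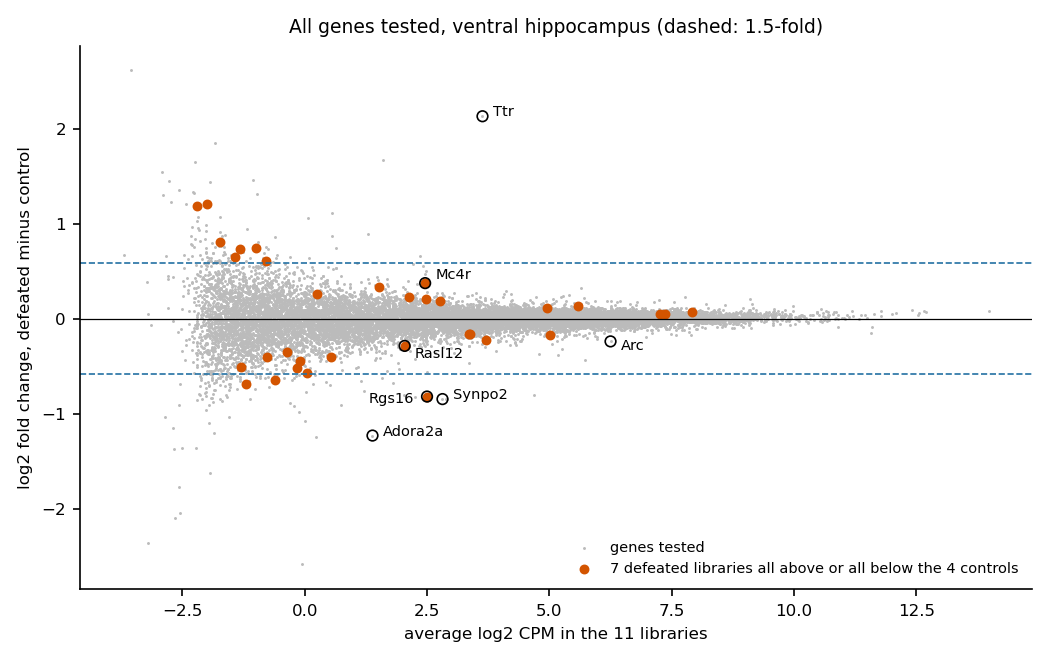
Log2 fold change (defeated minus control, vertical axis) against average log2 CPM in the 11 libraries (horizontal axis) for the 17758 genes tested. Grey points are all genes, orange points are the 33 genes whose defeated and control libraries did not overlap, black rings mark genes named in the text and dashed lines mark 1.5-fold; most genes that averaged 1 log2 CPM or more lie between the dashed lines.

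Among genes with lower values in defeated mice, the smallest p belonged to Rasl12 (ENSMUSG00000041696), which encodes a small GTPase of the Ras-like family. Its CPM was 4.19, 4.98, 4.57 and 4.77 in the control libraries, 3.89, 3.90 and 3.94 in the susceptible and 3.34, 3.94, 3.38 and 4.10 in the resilient libraries. Every defeated library was below every control library, which by itself puts defeated below control in all 4 runs of sample numbers. The log2 fold change was -0.28 (SE 0.089, unadjusted p = 0.00408, adjusted p = 0.999994 by edgeR), and it stayed between -0.34 and -0.25 when any 1 library was left out. Ankrd39, an ankyrin repeat gene, averaged 8.70 ± 0.485 CPM in control (SD, n = 4) and 7.26 ± 0.652 in defeated mice (SD, n = 7), a log2 fold change of -0.26 (SE 0.085). Its groups overlapped, since control replicate 4 (8.03) was below susceptible replicate 1 (8.28). Gpr83, a G protein-coupled receptor gene, was at -0.18 (SE 0.061), and Pycrl, a reductase gene of proline synthesis, at -0.18 (SE 0.063). Prima1, which anchors acetylcholinesterase in brain membranes, was at -0.41 (SE 0.156), with -0.17 in susceptible and -0.60 in resilient mice against the same controls. Trpt1, a gene of tRNA processing, was at -0.29 (SE 0.111), and Amer1, a regulator of WNT signalling, at -0.16 (SE 0.063).

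Genes with higher values in defeated mice and the smallest p differed by 0.15 to 0.29 on the log2 scale, sizes that overlap with those of the lower genes. Nsrp1, a splicing regulator of nuclear speckles, was at 0.19 (SE 0.068), and Rbm48, an RNA-binding protein gene, at 0.19 (SE 0.071). The zinc finger genes Zfp420 and Zfp711 were at 0.16 (SE 0.061) and 0.19 (SE 0.074). Tceal5, of the transcription elongation factor A-like family, was at 0.16 (SE 0.065). Pole3, a histone-fold subunit of DNA polymerase epsilon, was at 0.15 (SE 0.061), and Aimp2, a scaffold of the aminoacyl-tRNA synthetase complex, at 0.15 (SE 0.064). The largest of these differences was that of Pdgfd, a ligand of platelet-derived growth factor receptors, at 0.29 (SE 0.112). Its CPM was 3.90, 4.05, 3.67 and 3.21 in control, 4.87, 4.77 and 4.14 in susceptible and 4.54, 4.09, 5.77 and 3.81 in resilient libraries, and resilient replicate 4 lay within the control range. The edgeR adjusted p of each of these genes was 0.999994.

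In 33 of the 17758 genes (0.186%) the 7 defeated libraries all lay on 1 side of the 4 control libraries: 18 (0.101%) above and 15 (0.0845%) below. At least 1.3-fold separated the group means in 16 of them (0.0901%). Only 16 of the 33 averaged 1 log2 CPM or more, 10 above and 6 below, and the other 17 were of low abundance. When any 1 library was left out, which makes separation easier, the count was 48 to 165. None of the 33 was called by edgeR. The number that would separate with no difference between groups was not worked out, so the count of 33 by itself shows no effect of defeat. The largest difference among the 6 below was that of Rgs16, a regulator of G-protein signalling, at 17.0, 5.71, 5.28 and 5.56 CPM in control, 4.66, 5.19 and 4.26 in susceptible and 5.11, 4.97, 4.62 and 4.91 in resilient libraries. Its log2 fold change was -0.82 (SE 0.317), and -0.20 without control replicate 1, so 1 library sets most of its size while the order of the groups holds in all 11. Rgs16 is also in the list of thalamus and habenula markers given below, for which that same control library stood apart. Gpt, which encodes alanine aminotransferase, was at 13.7, 15.8, 14.0 and 14.0 CPM in control, 12.5, 13.2 and 13.6 in susceptible and 12.0, 13.5, 10.2 and 11.5 in resilient libraries (-0.22, SE 0.096). G6pc3, a widely expressed glucose phosphatase of the endoplasmic reticulum, was at -0.17 (SE 0.074), from 34.7 ± 0.766 CPM in control (SD, n = 4) to 30.8 ± 2.05 in defeated mice (SD, n = 7).

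Of the 10 separated genes with higher values that averaged 1 log2 CPM or more, Mc4r, the melanocortin receptor gene known for its part in energy balance, differed most. It stood at 4.79, 4.13, 4.76 and 4.90 CPM in control, 5.95, 6.33 and 6.14 in susceptible and 6.42, 5.75, 4.97 and 6.41 in resilient libraries. The lowest defeated library, resilient replicate 3, was just above the highest control. The log2 fold change was 0.38 (SE 0.179, unadjusted p = 0.0474), and it ranged from 0.32 to 0.41 when any 1 library was left out. Shpk, a kinase gene of the pentose phosphate pathway, was at 4.13, 3.94, 3.72 and 3.82 CPM in control, 4.38, 4.87 and 4.44 in susceptible and 4.77, 4.88, 4.43 and 4.33 in resilient libraries (0.23, SE 0.096). Agmo, an enzyme gene of ether lipid breakdown, was at 0.21 (SE 0.112), Rbm48 at 0.19 and Otub2, a deubiquitinase gene, at 0.14 (SE 0.071). Otub2 was separated by the least of these, with control replicate 1 at 45.99 CPM and resilient replicate 1 at 46.05.

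**Figure D3:**
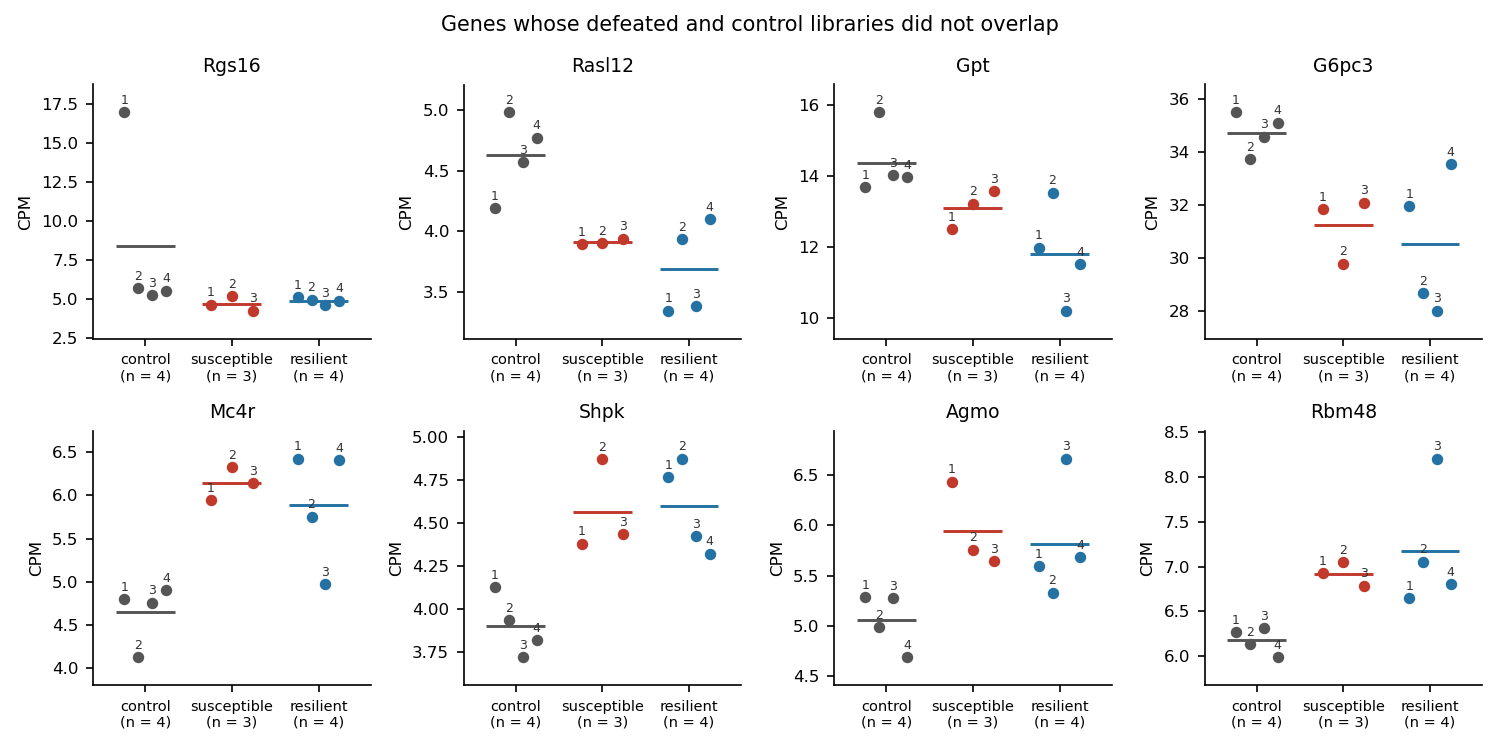
CPM (vertical axes) of 8 genes whose defeated and control libraries did not overlap, in control, susceptible and resilient mice; each point is 1 library with its replicate number and lines are group means. Rgs16, Rasl12, Gpt and G6pc3 are lower and Mc4r, Shpk, Agmo and Rbm48 higher in all 7 defeated libraries, and control replicate 1 is far above the other controls for Rgs16.

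Immediate early genes, which active neurons transcribe rapidly, were lower after defeat in more members than not. Of 23 members 0 were called (0%), 16 had lower and 7 higher values, and their median log2 fold change was -0.061, beside 0.0059 over all genes. The libraries overlapped in the list's mean, and within runs of sample numbers it was lower in defeated mice in runs 1, 3 and 5 and higher in run 4 (0.054 log2 CPM). Arc, whose product regulates glutamate receptor traffic, was the 1 member at an unadjusted p below 0.05. It stood at 86.4, 101.6, 66.5 and 85.8 CPM in control, 67.1, 87.5 and 72.8 in susceptible and 73.3, 72.6, 59.9 and 72.6 in resilient libraries. The groups overlapped, since control replicate 3 was below every defeated library except resilient replicate 3. The log2 fold change of Arc was -0.24 (SE 0.112, unadjusted p = 0.0461), with -0.17 in susceptible and -0.29 in resilient mice against the shared controls, and defeated was lower in all 4 runs. Npas4, an activity-dependent transcription factor gene, was at -0.30 (SE 0.162) and also lower in all 4 runs. Without control replicate 2, the highest library for both, Arc was at -0.14 and Npas4 at -0.14. Fos stood at 4.593, 5.5997, 2.261 and 3.60 CPM in control, 2.54, 3.12 and 2.47 in susceptible and 3.49, 4.12, 6.86 and 3.60 in resilient libraries. Its highest value was in resilient replicate 3, and its log2 fold change of -0.18 (SE 0.227) turned to 0.023 without control replicate 2. Egr1, another transcription factor gene of this class, was at 84.5 ± 7.16 CPM in control (SD, n = 4) and 85.4 ± 5.52 in defeated mice (SD, n = 7), a log2 fold change of 0.014 (SE 0.072).

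Glucocorticoid-responsive genes, which corticosterone induces through its receptors, had higher values in defeated mice in 18 of 19 members measured, with 0 called (0%) and 0 at an unadjusted p below 0.05. Their median log2 fold change was 0.064. It was 0.13 in susceptible mice (18 members higher) and 0.043 in resilient mice (12 higher), both against the same 4 controls. In mean log2 CPM the control libraries were at 4.32, 4.31, 4.16 and 4.19, the susceptible at 4.86, 4.30 and 4.24, and the resilient at 4.28, 4.15, 4.62 and 4.24. The groups overlapped, and susceptible replicate 1 and resilient replicate 3 were the only libraries above the control range. Without susceptible replicate 1 the median was 0.026, and without resilient replicate 3 it was 0.049. Sgk1, a kinase gene induced by corticosteroids, was at 94.4, 64.8, 67.9 and 62.0 CPM in control, 124.1, 63.0 and 74.1 in susceptible and 78.7, 69.2, 87.8 and 80.2 in resilient libraries (0.18, SE 0.183; 0.057 without susceptible replicate 1). Cdkn1a, a cell cycle inhibitor gene, was at 5.29, 4.47, 4.05 and 4.38 CPM in control, 10.8, 4.70 and 5.26 in susceptible and 4.09, 5.63, 9.30 and 6.13 in resilient libraries. Susceptible replicate 1 and resilient replicate 3 were again the highest, and the log2 fold change was 0.50 (SE 0.378). Plin4, a lipid droplet gene chosen after its values were seen, was at 25.9 CPM in susceptible replicate 1 and between 2.36 and 5.72 CPM in the other 10 libraries. Fkbp5, a co-chaperone that restrains the glucocorticoid receptor, was at 71.55 ± 6.99 CPM in control (SD, n = 4) and 72.8 ± 8.11 in defeated mice (SD, n = 7), a log2 fold change of 0.022 (SE 0.097). Zbtb16, a transcription factor gene of this list, was at 0.097 (SE 0.087).

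The receptors that read these hormones were close between the groups. Nr3c1, the glucocorticoid receptor gene, was at 97.5 ± 8.36 CPM in control (SD, n = 4) and 96.5 ± 6.83 in defeated mice (SD, n = 7), a log2 fold change of -0.016 (SE 0.093). Nr3c2, the mineralocorticoid receptor gene, was at 259.0 ± 17.6 CPM in control and 276.9 ± 15.3 in defeated mice (SD, n = 4 and 7), a log2 fold change of 0.096 (SE 0.108), and higher in defeated mice in all 4 runs. The 14 corticosteroid receptors and their cofactors had a median of 0.017, with 9 higher and 5 lower; among them the chaperone genes Hsp90ab1 and Hspa8 were at 0.069 (SE 0.060) and 0.076 (SE 0.075). In the corticotropin-releasing hormone system, 4 of 7 members passed the filter on low counts, which Ucn, Ucn2 and Ucn3 did not. Crh, the hormone gene, was at 1.51 ± 0.486 CPM in control and 1.38 ± 0.375 in defeated mice (SD, n = 4 and 7; log2 fold change -0.11, SE 0.230). Crhbp, the binding protein gene, was at -0.055 (SE 0.114), and the receptor gene Crhr1 at 0.000086 (SE 0.110).

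**Figure D4:**
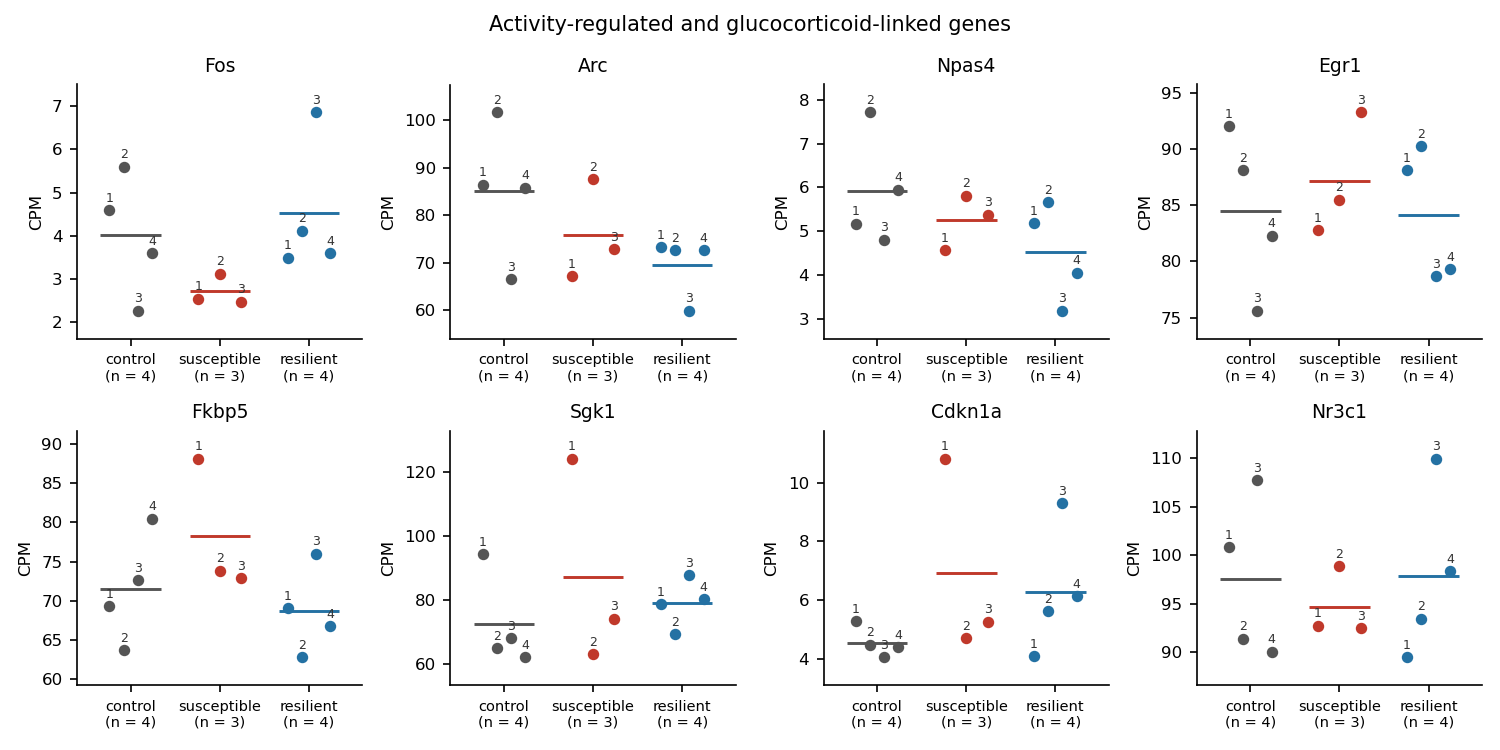
CPM (vertical axes) of 4 activity-regulated genes (upper row) and of 3 glucocorticoid-responsive genes and the glucocorticoid receptor gene Nr3c1 (lower row) in control, susceptible and resilient mice; each point is 1 library with its replicate number and lines are group means. The groups overlap for all 8 genes, and the highest values of Sgk1 and Cdkn1a are in susceptible replicate 1, at 124.1 and 10.8 CPM.

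Neurotrophin genes showed no call. Bdnf, which supports synaptic plasticity, was at 63.3 ± 7.42 CPM in control and 64.0 ± 8.38 in defeated mice (SD, n = 4 and 7), a log2 fold change of 0.013 (SE 0.122). Ntf3, a ligand of the same family, was at -0.21 (SE 0.115). The 9 members measured had a median of -0.016, with 3 higher and 6 lower.

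Receptors and release machinery of synapses lay near the median of all genes. Of the 12 GABA-A receptor subunits 10 had higher values, with a median of 0.037 that turned to -0.020 without control replicate 2; Gabrg1 was at 0.098 (SE 0.116). The 19 ionotropic glutamate receptor genes and partners had a median of -0.0026 (8 higher, 11 lower), among them Cacng2, an AMPA receptor auxiliary subunit, at -0.077 (SE 0.062) and Gria3, an AMPA receptor subunit, at 0.056 (SE 0.060). Of the 7 metabotropic glutamate receptor genes 5 had lower values (median -0.031); Grm4 was at -0.36 (SE 0.309), a value that became -0.013 without control replicate 1, where it stood at 16.3 CPM against 6.42 to 9.30 in the other controls, and Grm3 was at -0.094 (SE 0.105). The 11 serotonin receptor genes measured had a median of 0.037, with Htr1a at 0.13 (SE 0.0998) and Htr5a at 0.088 (SE 0.076). The 18 synaptic vesicle genes had a median of 0.00019 and ranged from -0.098 (Cplx1, a regulator of vesicle fusion; SE 0.086) to 0.035, with the vesicle fusion protein gene Vamp1 at -0.075 (SE 0.093). None of these 5 lists had a member called or a member at an unadjusted p below 0.05.

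Chaperones of the endoplasmic reticulum, which fold secreted and membrane proteins, had higher values in 15 of 16 members, with 0 called (0%) and a median log2 fold change of 0.078. The median was 0.0057 in susceptible mice (10 higher) and 0.12 in resilient mice (15 higher) against the shared controls. In mean log2 CPM the control libraries were at 5.90, 5.91, 5.98 and 6.04, the susceptible at 5.92, 6.02 and 5.98 and the resilient at 5.99, 6.10, 6.16 and 6.11. The resilient libraries other than replicate 1 were above every control, and the susceptible libraries lay within the control range. Sdf2l1 was at 0.27 (SE 0.154), with its highest value of 12.8 CPM in resilient replicate 3, and 0.17 without that library. Calr, encoding calreticulin, was at 279.5, 279.0, 288.1 and 309.6 CPM in control, 261.2, 299.2 and 309.3 in susceptible and 309.8, 347.3, 335.5 and 326.9 in resilient libraries. All 4 resilient values of Calr were above every control, the log2 fold change being 0.19 in resilient, 0.0045 in susceptible and 0.11 (SE 0.065) in all defeated mice. The median of the list stayed between 0.049 and 0.096 when any 1 library was left out.

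Genes of energy metabolism differed little. All 12 measured genes of the mitochondrial genome had higher values in defeated mice (median 0.073), among them mt-Co3 (0.086, SE 0.052) and mt-Co2 (0.098, SE 0.063), subunits of cytochrome oxidase. The list's mean log2 CPM was 11.03, 11.00, 11.28 and 11.38 in control and between 11.09 and 11.37 in defeated libraries, and the median became -0.0070 without control replicate 2. The 23 nuclear genes of oxidative phosphorylation had a median of 0.013 and ranged from -0.054 to 0.062, the highest being Sdhb (SE 0.045), a subunit of succinate dehydrogenase, whose partner Sdha was at 0.047 (SE 0.043). Cholesterol synthesis genes had lower values in 15 of 17 members (median -0.041), 17 of 17 in susceptible and 10 of 17 in resilient mice; Idi1, an isomerase of the pathway, was at -0.14 (SE 0.085) and Insig1, which holds back the pathway's activation, at -0.10 (SE 0.089). The 26 cytosolic ribosomal protein genes had a median of 0.024, which was -0.040 without control replicate 1, with Rps24 at 0.11 (SE 0.059) and Rpl4 at 0.078 (SE 0.054); both have near-identical copies elsewhere in the genome between which reads could be split. The 13 heat shock genes had a median of 0.018 (-0.012 without control replicate 1), with Hspe1, a mitochondrial chaperonin gene, at 0.079 (SE 0.059).

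Clock and chromatin genes were also near 0. The 16 circadian clock genes had a median of 0.012, with Dbp at -0.16 (SE 0.124) and Nr1d1 at -0.13 (SE 0.113), both transcription factor genes of the clock's output and feedback loops. The 16 DNA methylation and histone deacetylase genes had a median of -0.0031, with the demethylase gene Tet1 at -0.15 (SE 0.088) and the methyltransferase gene Dnmt3a at -0.080 (SE 0.071). Each of these 2 lists had 0 called members (0%) and 0 at an unadjusted p below 0.05.

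Immune genes had their highest values in 1 resilient library. The 15 microglia markers had a median log2 fold change of 0.037 (12 higher, 3 lower), with 3 of 15 higher in susceptible and 15 of 15 in resilient mice against the shared controls. Their mean log2 CPM was 4.71, 4.96, 4.83 and 4.62 in control, 4.68, 4.81 and 4.68 in susceptible and 4.82, 4.78, 5.28 and 4.71 in resilient libraries. Resilient replicate 3 was the only defeated library above the control range, and without it the median was -0.053. The 17 interferon response and antigen presentation genes had a median of 0.011, which was -0.076 without that library. Ifitm3, an interferon-induced membrane protein gene, was at 5.52, 8.55, 5.94 and 5.51 CPM in control, 4.84, 7.30 and 4.47 in susceptible and 7.21, 6.87, 13.8 and 6.58 in resilient libraries (0.14, SE 0.259; -0.058 without resilient replicate 3). Inflammatory cytokine genes had a median of 0.084 over 13 of 16 members, since Il1b, Il6 and Tnf did not pass the filter on low counts, and -0.021 without resilient replicate 3. The interleukin receptor gene Il1r1 was at 0.15 (SE 0.098; 0.082 without that library), Nfkbia, an inhibitor of NF-kappaB, at 0.084 (SE 0.102), and Irf9, a factor of the interferon response, at -0.079 (SE 0.157). None of these 3 lists had a called member (0%).

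The same library was the highest for markers of dividing and newborn cells. The 16 genes of immature neurons and proliferation had a mean log2 CPM of 3.94 in resilient replicate 3 and between 3.48 and 3.64 in the other 10 libraries. Mki67, which marks dividing cells, was at 4.94, 5.28, 4.10 and 3.69 CPM in control, 4.51, 5.94 and 5.58 in susceptible and 5.90, 4.39, 12.9 and 5.88 in resilient libraries. Its log2 fold change of 0.47 (SE 0.277) was 0.24 without that library. The list's median was 0.010, and -0.040 without it. Igfbpl1, expressed in immature granule neurons, was at 0.23 (SE 0.160; 0.13 without control replicate 4). In bulk tissue, fewer cells of a type and less RNA per cell cannot be told apart, here and in the marker lists below.

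Markers of dentate granule cells, the principal neurons of the dentate gyrus, had higher values in defeated mice in 8 of 8 members, with 0 called (0%) and a median log2 fold change of 0.13. The median was 0.14 in susceptible and 0.14 in resilient mice, against the shared controls. The mean log2 CPM was 6.00, 5.89, 5.92 and 5.81 in control, 5.99, 6.09 and 6.03 in susceptible and 6.09, 6.11, 6.15 and 5.66 in resilient libraries. The groups overlapped, because resilient replicate 4 was below every control and susceptible replicate 1 was just under control replicate 1. Trpc6, a cation channel gene, was at 23.7, 20.6, 22.7 and 21.8 CPM in control, 22.9, 25.6 and 24.8 in susceptible and 25.5, 28.3, 29.4 and 22.5 in resilient libraries (0.20, SE 0.099, unadjusted p = 0.0537). Stxbp6, a syntaxin-binding protein gene, was at 0.18 (SE 0.113; 0.11 without resilient replicate 3). The median of the list stayed between 0.072 and 0.19 when any 1 library was left out, and within runs the list's mean differed by -0.018, 0.23, 0.23 and 0.12.

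Other subfields of the hippocampus gave smaller differences. The 6 CA1 pyramidal cell markers measured had a median of 0.095 (5 higher, 1 lower), and 0.022 without control replicate 4. The 9 CA3 and CA2 markers had a median of -0.050 (1 higher, 8 lower), and 0.0061 without that same control. Interneuron markers were split evenly, with 6 higher and 6 lower and a median of 0.0029. The 5 genes listed as ventral pole markers had a median of -0.027 (-0.20 without resilient replicate 4 and 0.21 without control replicate 4), with -0.38 in susceptible and 0.15 in resilient mice; resilient replicate 4 had the highest mean of that list, 2.52, and the lowest mean of the dentate list. Whether the position of the dissection differed between libraries was not tested.

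Thalamus and habenula markers differed with 1 control library. They had a median log2 fold change of -0.56 (3 higher, 13 lower of 16), with 5 members at an unadjusted p below 0.05 and 0 called (0%). Their summed level was 188.8 to 411.1 CPM in control and 186.5 to 202.3 CPM in defeated libraries. Only control replicate 1, at a mean of 3.61 log2 CPM, was outside 2.32 to 2.47, the range of the other 10 libraries, and without it the median was -0.056. Synpo2, an actin-binding protein gene, was at 22.6, 6.27, 7.16 and 6.68 CPM in control, 6.22, 7.04 and 5.23 in susceptible and 5.37, 5.81, 6.51 and 6.07 in resilient libraries. The log2 fold change of Synpo2 was -0.85 (SE 0.370) with that library and -0.15 without it. Gbx2, a defining thalamic transcription factor gene, was at 0.52 CPM in control replicate 1 and at 0 to 0.0751 CPM in the other 10 libraries.

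Striatal projection neuron markers followed the same control library. Of 17 measured 13 had lower values, with a median of -0.19, and -0.035 without control replicate 1, which was at a mean of 4.21 log2 CPM against 3.35 to 3.48 in the other libraries. Their summed level was 455.5 to 599.2 CPM in control and 455.0 to 492.3 CPM in defeated libraries. Adora2a, the adenosine receptor gene of striatal neurons that project to the pallidum, was at 12.6, 2.25, 2.03 and 2.78 CPM in control, 1.66, 2.48 and 2.53 in susceptible and 1.88, 1.73, 2.44 and 2.24 in resilient libraries. Its log2 fold change was -1.23 (SE 0.452), and -0.14 without control replicate 1. Rab37, a Rab GTPase gene that is not in this list, was at -0.67 (SE 0.302), and -0.24 without that library. Rarb, a retinoic acid receptor gene, was at -0.22 (SE 0.121) and kept a value between -0.31 and -0.18 when any 1 library was left out. The part of tissue carry-over in these differences was not tested; the values without control replicate 1 are those given.

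Choroid plexus markers had higher values in defeated mice in 15 of 15 members, with a median of 0.81, and this followed 1 resilient library. Their summed level was 53.0 to 59.3 CPM in control and 45.5 to 1047 CPM in defeated libraries. Ttr, which encodes transthyretin and is the most abundant choroid plexus transcript, was at 15.9, 11.3, 8.29 and 9.89 CPM in control, 6.04, 8.60 and 5.11 in susceptible and 898, 6.00, 6.71 and 7.10 in resilient libraries. All defeated libraries except resilient replicate 1 were below the control mean, and the log2 fold change of 2.13 (SE 1.71) was -0.79 without that library. The median of the list was -0.11 without it. Prlr, the prolactin receptor gene, was at 0.40 (SE 0.592), and 0.084 without that library. Ependymal markers, of the cells that line the ventricles, had a median of -0.11 over 12 members, with Enkur at -0.18 (SE 0.210; -0.082 without control replicate 3) and Cfap126 at 0.23 (SE 0.328; 0.13 without resilient replicate 1). Meningeal fibroblast markers had a median of 0.079, which was -0.011 without resilient replicate 1.

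Cells of vessels and of myelin had lower values in most members. Of the 14 endothelial markers 13 were lower in defeated mice, with a median of -0.13, and -0.057 without resilient replicate 2. Their mean log2 CPM was 4.36, 4.45, 4.49 and 4.38 in control, 4.39, 4.47 and 4.28 in susceptible and 4.08, 3.95, 4.43 and 4.47 in resilient libraries. Resilient replicates 1 and 2 were the lowest, and the other 5 defeated libraries were at 4.28 to 4.47. Egfl7, a secreted protein gene of endothelial cells, was at -0.15 (SE 0.080), and Esam, an endothelial adhesion molecule gene, at -0.21 (SE 0.129). All 10 mural cell markers were lower, with a median of -0.071 and the same resilient replicates lowest, at 3.34 and 3.15 against 3.49 to 3.71 in the other 9 libraries. Oligodendrocyte markers were lower in 14 of 15 members (median -0.090), with a mean log2 CPM of 6.90, 7.17, 7.10 and 6.63 in control and 6.48 to 7.09 in defeated libraries. That median was -0.033 without control replicate 2 and -0.20 without control replicate 4, and in run 5 the list's mean was higher in defeated mice by 0.15. None of these 3 lists had a member called (0%) or at an unadjusted p below 0.05. Markers of oligodendrocyte precursors (median -0.025), astrocytes (0.013) and neighbouring cortex and amygdala (-0.025) were near 0; red blood cell genes (0.066 over 5 members, -0.14 without susceptible replicate 2) and pituitary hormone transcripts (-0.12 over 4 members, 0.41 without control replicate 1) changed sign with 1 library.

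**Figure D5:**
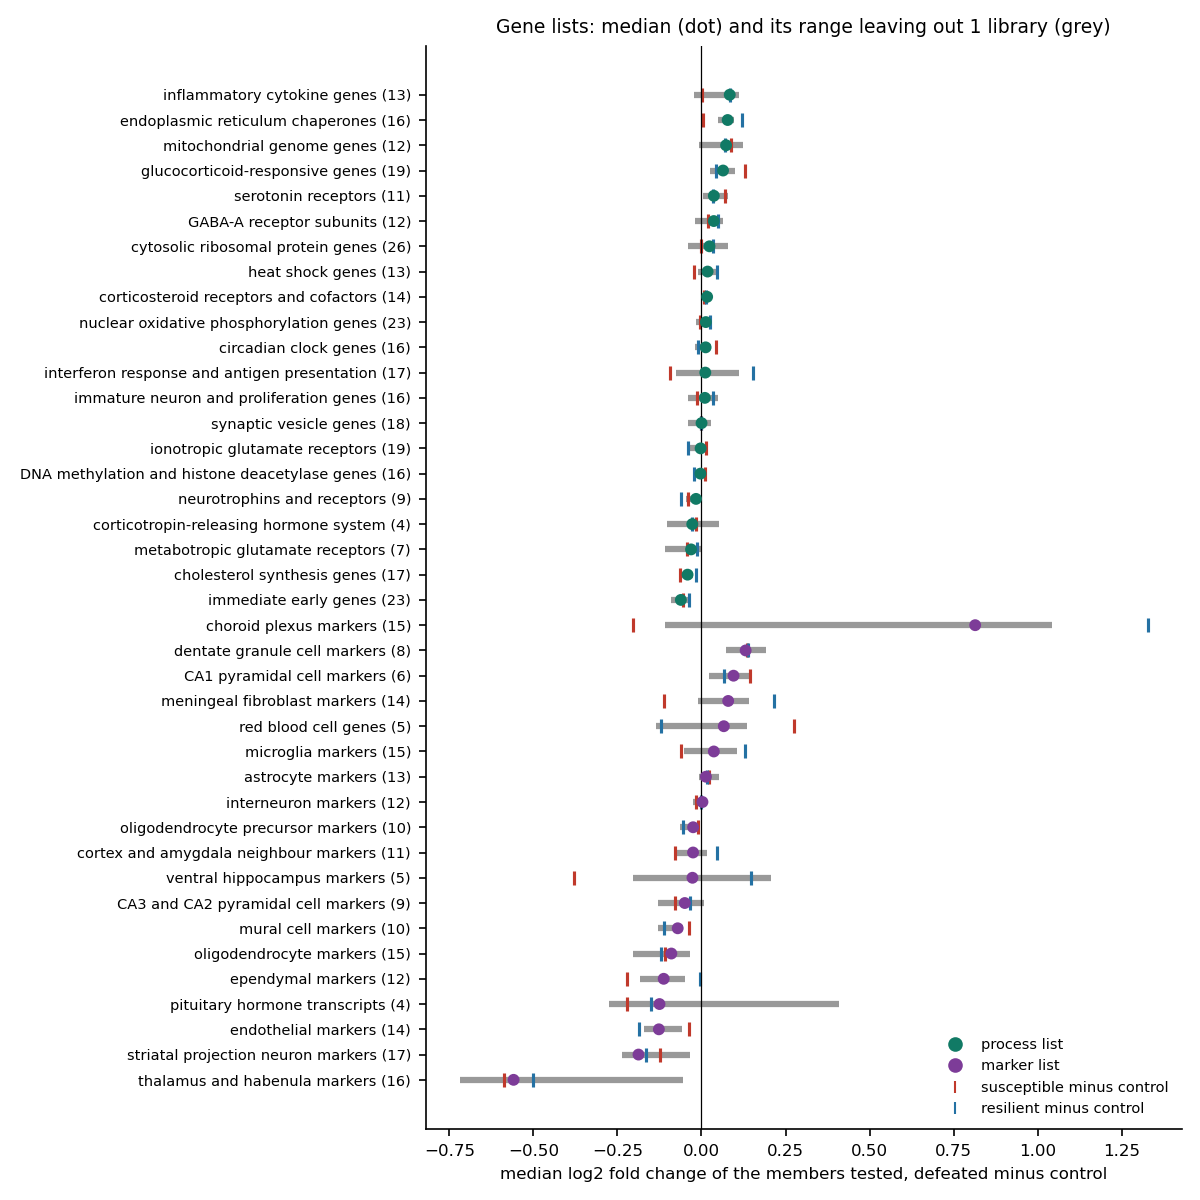
Median log2 fold change (defeated minus control, horizontal axis) of the members tested in each of 40 gene lists, with the number of members in brackets. Dots are all 7 defeated libraries against 4 controls, grey bars the range of that median when any 1 library is left out, and red and blue ticks the susceptible and resilient libraries against the same controls; the bars of the thalamus and habenula, striatal and choroid plexus lists reach to -0.056, -0.035 and -0.11.

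The outcome groups were also read against the shared controls and against each other. edgeR called 0 of 17758 genes (0%) for susceptible and 0 (0%) for resilient mice against control, and an unadjusted p below 0.05 was reached by 166 (0.935%) and 318 (1.79%) of them. Of the 166, 75 (0.422%) were higher and 91 (0.512%) lower, and of the 318, 166 (0.935%) were higher and 152 (0.856%) lower. Between resilient and susceptible mice edgeR and DESeq2 each called 0 (0%), and edgeR had 369 genes (2.08%) at an unadjusted p below 0.05, 164 (0.924%) higher and 205 (1.15%) lower in resilient mice. Dcn, a proteoglycan gene of connective tissue, was at 4.16, 4.55, 3.72 and 4.64 CPM in control, 3.56, 3.24 and 3.09 in susceptible and 7.32, 5.72, 5.22 and 13.6 in resilient libraries. The susceptible values were all below and the resilient values all above those of the controls, so that the difference of all defeated mice was 0.37 (SE 0.248) while the 2 outcome groups differed by 1.31 (SE 0.297, edgeR adjusted p = 0.999911). Without resilient replicate 4 the difference of all defeated mice was 0.058. Dcn is also in the lists of ventral pole and meningeal fibroblast markers, for both of which resilient replicates 1 and 4 had the highest means. The part of tissue content in this difference was not tested. Git1, a scaffold gene of synapses, was at 555.0, 576.6, 546.1 and 474.8 CPM in control, 618.3, 610.5 and 598.0 in susceptible and 514.8, 549.5, 518.3 and 460.5 in resilient libraries. Here the susceptible libraries were above every control and every resilient library (resilient minus susceptible -0.25, SE 0.071), and the difference of all defeated mice was 0.033 (SE 0.059). Zfpm1, a transcription cofactor gene, had the same order (-0.34, SE 0.092 between outcome groups and 0.0036, SE 0.076 over all defeated mice). Rimbp3 was at -0.40 (SE 0.116) between outcome groups, with control replicate 1 within its susceptible range. Ankdd1b, an ankyrin repeat gene, was lowest in the 3 susceptible libraries (0.35, SE 0.090). Lum, a proteoglycan gene and listed meningeal fibroblast marker like Dcn, was at 0.68 (SE 0.211).

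Whether the difference between defeated and control mice was particular to the ventral hippocampus was tested in a fit of all 99 libraries. The contrast was the hippocampal difference minus the mean of those in prefrontal cortex, nucleus accumbens and basolateral amygdala. All libraries were treated as independent, though the labels do not say whether regions came from the same mice. The SE and p values of this contrast rest on that. edgeR called 1 of 19024 genes (0.00526%), as did DESeq2; 270 (1.42%) were at an unadjusted p below 0.05, of which 97 (0.51%) were higher and 173 (0.909%) lower. The call was lost, leaving 0, without control replicate 1, where the smallest adjusted p by edgeR went from 0.0139 to 0.999958. It was also lost without susceptible replicate 1 or susceptible replicate 3, but there the smallest adjusted p stayed near the threshold, at 0.0531 and 0.0654. Adora2a (-1.92, SE 0.545), Rgs16 (-0.85, SE 0.248) and Rab37 (-0.98, SE 0.289) were the lower genes of smallest p among those that averaged 1 log2 CPM or more, and Nfil3 (0.34, SE 0.105), Zfp493 (0.41, SE 0.136) and Rbm48 (0.31, SE 0.108) the higher ones. None of these 6 passed (edgeR adjusted p = 0.999988). Without control replicate 1 the contrast was -0.81 for Adora2a, -0.24 for Rgs16 and -0.54 for Rab37. In the hippocampal fit without that library, defeated minus control was -0.14 for Adora2a, -0.20 for Rgs16 and -0.24 for Rab37. The contrast also takes in the differences of the other regions, which are not given here.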

How the data were processed

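The authors deposited raw counts of reads in 37991 Ensembl genes for 99 libraries, as whole numbers with no normalization. Per the labels' protocols, poly-A libraries from a kit that does not mark strand were read in pairs, so overlapping antisense genes cannot be told apart. The submitters' processing notes name Bowtie2 2.1.0, TopHat2 2.0.9, HTSeq 0.6.0 and build NCBIM37; counting settings and annotation are not given in the sources used here. Each column was matched to its library through the number in the sample title. Symbols were found for 32919 IDs (86.6%) in a table of gene names, and no genome of the authors' build was used.

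The 24 ventral hippocampus libraries (7 groups) were fitted in R 4.3.3 with edgeR 4.0.16: filterByExpr (minimum count 10), TMM scaling, and robust quasi-likelihood F-tests. The contrast weighted the 7 defeated libraries equally against the 4 controls, p was adjusted by Benjamini-Hochberg over all genes tested, with 0.05 as the threshold for a call. The between-region contrast used a fit of all 99 libraries with 28 group means. CPM values use the TMM-scaled library sizes, and log2 CPM a prior count of 2. The tests were tried on simulated counts first. Lists were described by counts and medians, with no list test.

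Members, lists and naming rule were chosen with earlier results of these data known. Named genes, which averaged 1 log2 CPM or more and had no clone-like symbol, were any called genes (10 at most in each direction), the 8 with the smallest p in each direction, the 5 with the largest difference in each direction among separated genes, and the 2 with the smallest p in each process list and in each marker list with a median beyond 0.1. The 3 with the smallest p in each direction between outcome groups and between regions, and 10 stress-related genes, were also named. Plin4 and Gbx2 were named after their values were seen. Some genes that the rule or a test picked are not reported here. The alternatives were median-ratio scaling, no filter on low counts, DESeq2 1.42.0, the 11 saline libraries alone, defeated mice as 1 group, equal weight of the outcome groups, the run of sample numbers as a covariate, and leaving out each library. Leaving out control replicate 1 with resilient replicate 1 was added after seeing the data.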

Additional observations from a re-analysis of the deposited data

Results flagged for a closer look

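A library stood apart from the others of its group (7 defeated or 4 control libraries) in 26 of 262 groups of values looked at (9.92%). Chance gives about 1 in 20 for a single group, and these groups are not independent, since genes and lists share the libraries. Many of the genes were also picked by their values in these same libraries. The 9.92% is therefore not a test against that rate. Resilient replicate 3 was that library 9 times, control replicate 1 on 5 occasions, resilient replicate 1 on 4, and control replicate 2 and resilient replicate 4 on 3 each.

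Resilient replicate 3 was the highest defeated library for Rbm48 (8.21 CPM), Mki67 (12.9 CPM), Insig1 (79.0 CPM), Fos (6.86 CPM) and Ifitm3 (13.8 CPM). It was also the highest in mean log2 CPM of microglia markers (5.28), interferon response and antigen presentation genes (3.12), inflammatory cytokine genes (2.17) and genes of immature neurons and proliferation (3.94). Control replicate 1 was the highest control for Adora2a (12.6 CPM), Rgs16 (17.0 CPM) and Synpo2 (22.6 CPM), and in mean log2 CPM of thalamus and habenula markers (3.61) and striatal markers (4.21). Resilient replicate 1 was the highest defeated library for Ttr (898 CPM), Prlr (11.7 CPM) and choroid plexus markers (3.24 log2 CPM), and the lowest for Otub2 (46.05 CPM).

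Control replicate 2 was the highest control for Gpt (15.8 CPM) and Ifitm3 (8.55 CPM) and the lowest for corticosteroid receptors and cofactors, at 7.51 log2 CPM against 7.56 in the others. Resilient replicate 4 was the highest defeated library for Rarb (6.29 CPM) and Dcn (13.6 CPM) and the lowest for dentate granule cell markers (5.66 log2 CPM). Susceptible replicate 1 was the highest defeated library for Sgk1 (124.1 CPM), and susceptible replicate 2 for red blood cell genes (2.80 log2 CPM). Why these libraries stood apart was not tested.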

How the results depend on the processing

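No gene was called between defeated and control mice, or between resilient and susceptible mice, under any alternative run: the count was 0 throughout, with 171 to 304 genes at an unadjusted p below 0.05 for defeated against control when 1 library was left out, 434 with no filter on low counts and 772 with the run of sample numbers as a covariate. Separated genes numbered 68 with no filter and 48 to 166 with 1 library left out or with control replicate 1 and resilient replicate 1 both left out; fewer libraries are separated more easily by construction. That count passed 1.5 times the 33 of all libraries without each library except resilient replicate 1. The region difference kept 1 call under the other settings but 0 to 1 on leaving out libraries (0 without control replicate 1, susceptible replicate 1 or susceptible replicate 3, and 0 without control replicate 1 and resilient replicate 1).

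Of 1729 alternatives for 91 named genes, 53 in 15 genes had the opposite sign, and none passed an adjusted p of 0.05. The sign of 24 of the 40 list medians changed when some 1 library was left out, 2 of them (choroid plexus and pituitary) among the 7 medians beyond 0.1 in size. Crhr1 turned negative with median-ratio scaling (-0.00372), the run covariate (-0.0594), the 11 libraries alone (-0.00869), defeated as 1 group (-0.00884) and DESeq2 (-0.00398), and Zfpm1 with median-ratio scaling (-0.000183), the 11 libraries alone (-0.00452) and DESeq2 (-0.000308). With the run covariate Ttr was at -0.124, Crh at 0.0163 and Crhbp at 0.0314. Without 1 library, or without control replicate 1 and resilient replicate 1, log2 fold changes ranged as follows. Ttr was at -0.793 to 2.67, Fos at -0.373 to 0.0233, Prlr at -0.0262 to 0.617, Git1 at -0.0333 to 0.0660 and Ifitm3 at -0.0581 to 0.325. Crh was at -0.290 to 0.0653, Crhbp at -0.153 to 0.0361, Crhr1 at -0.0636 to 0.101, Nr3c1 at -0.0621 to 0.0257 and Fkbp5 at -0.0345 to 0.0718. Lum was at -0.125 to 0.201, Ankdd1b at -0.115 to 0.0293, Egr1 at -0.0449 to 0.0501, Bdnf at -0.0450 to 0.0858 and Zfpm1 at -0.0687 to 0.0531. The causes were not tested.

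No paired analysis was possible because the labels give no replicate numbers shared between groups; the nearest blocked fit was the run covariate above, whose meaning the labels do not give. Genes below the filter on low counts were not tested, and for the rest the width of each interval limits what was detectable.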
